A study of Mus musculus with 13 samples.

Results

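Apoe, 7 receptors of lipoproteins and related ligands, and 2 chaperones of those receptors were followed in sorted murine melanoma cells from lung metastases of mice with either of 2 human APOE alleles. The 10 genes (Apoe, Lrp1, Lrp8, Lrp10, Lrp12, Sorl1, Sort1, Scarb1, Lrpap1 and Mesd) were picked by symbol from a table of 22656 genes, and all 10 were found in it. The cells were of the murine melanoma line B16F10-TR-shApoe, a B16F10 derivative with a short hairpin RNA against its own Apoe, and this line was used in every library. APOE2 and APOE3 knock-in mice received 100000 cells each by the tail vein, and the lungs were taken on day 15. Living CD45-negative, GFP-positive cells were sorted, with 8 libraries from APOE2 hosts and 5 from APOE3 hosts. The labels give neither the age nor the sex of the mice, and they do not say whether the hairpin was active in the lung. They also do not say that each library came from 1 mouse, so the p-values measure the spread between libraries.

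Apolipoprotein E is a secreted protein that carries lipid and binds to receptors of the LRP family. Those receptors are endocytic, and several of them also pass signals into the cell. They fold in the endoplasmic reticulum with the help of dedicated chaperones, of which Lrpap1 (also called RAP) keeps ligands from binding too early and Mesd assists the propeller domains. In melanoma, secreted apolipoprotein E is known to act on LRP1 of the tumour cell and on LRP8 of endothelial cells. The human APOE2 isoform is known for weaker receptor binding than APOE3. Since the hosts carry a human APOE allele and the tumour cells the mouse gene, the rows below count the mouse transcript. Whether reads of human APOE could have been assigned to mouse Apoe was not tested.

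The values are normalised counts, which are read counts divided by a size factor for each library. Recovered reads ranged from 7080308 to 13039989 per library. The library kit reads the end of a polyadenylated transcript, giving about a single read per transcript whatever its length, so the levels of different genes are set side by side without division by length. Differences are log2 fold changes of APOE2 minus APOE3 on the log2(value + pseudocount 1) scale. They come from limma fitted on the 12403 genes whose mean reached 10 normalised counts, with Benjamini-Hochberg adjustment over all of them. All 10 genes passed that filter. The melanocyte markers Dct, Pmel and Tyrp1 headed the melanoma list of 11 genes. All 11 genes of that list together summed to between 309314 and 468201 normalised counts in APOE2 and between 225501 and 340342 in APOE3. The medians were 350177 in APOE2 and 263409 in APOE3. The macrophage and monocyte list of 16 genes summed to between 47.1 and 216, and 7 of them, Adgre1 and C1qb included, were at 0 in most libraries. The lung-epithelium list of 15 genes summed to between 657 and 4106 in APOE2 and between 3428 and 21299 in APOE3. Fewer cells of a type and less RNA per cell cannot be told apart in such bulk values.

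None of the 10 genes differed between the hosts at the threshold of 0.05. By limma 0 of 10 had an adjusted p-value under it, where 0.790% of all genes tested did. Without adjustment, 2 of 10 passed at 0.05, Scarb1 and Sorl1, as did 14.2% of all genes. The edgeR quasi-likelihood test and DESeq2 on recovered reads also called 0 of 10, each with 1 gene (Scarb1) at an unadjusted p-value under 0.05. Of all 12403 genes tested, edgeR called 138 and DESeq2 311. Without adjustment, 1638 genes by edgeR and 1794 by DESeq2 had a p-value under 0.05. The estimate was below 0 for 7 genes and above 0 for 3. Their median was −0.12, beside 0.00037 for all genes tested. For 8 of the 10 genes the 95% interval lay within a halving and a doubling, and the 2 exceptions were Lrp1 and Sorl1, the genes with the lowest counts.

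**Figure D1:**
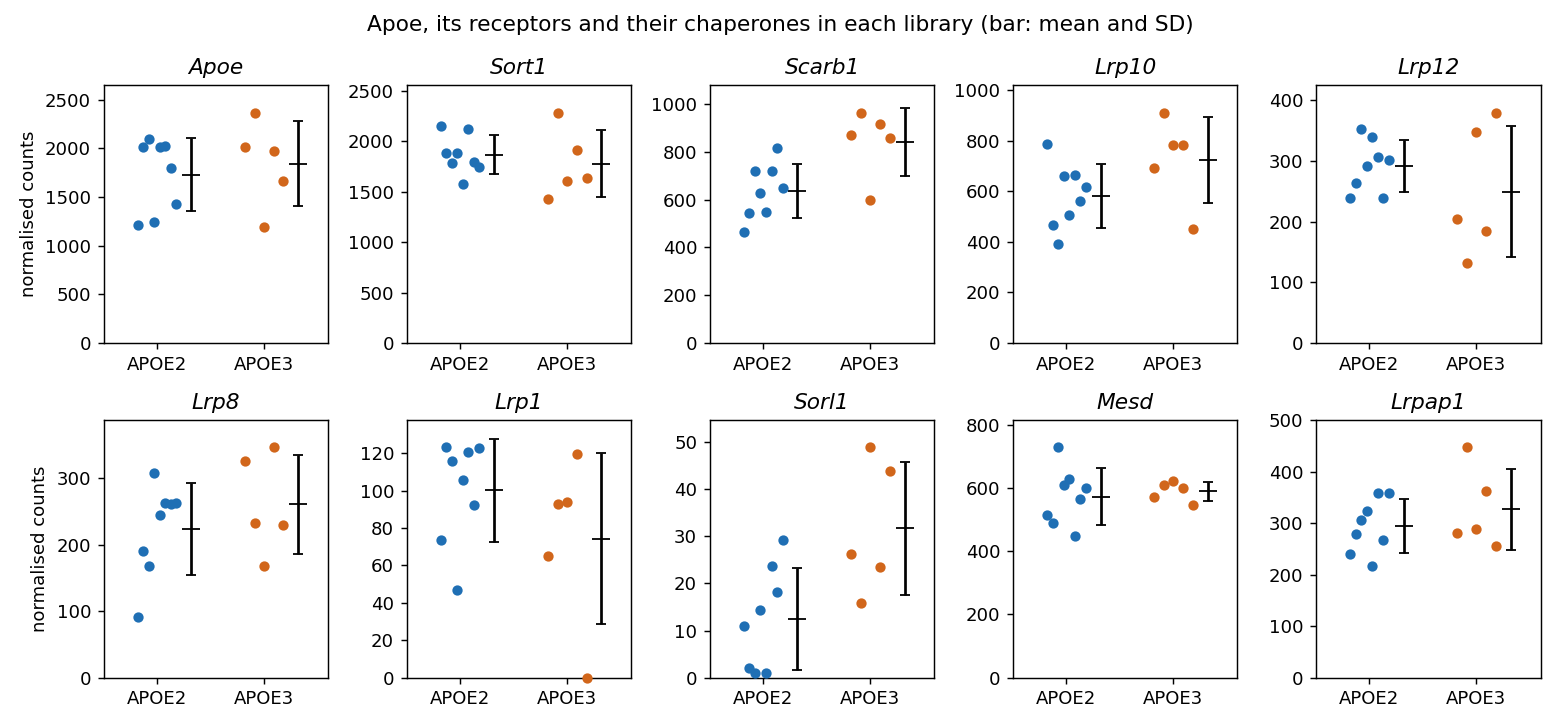
Normalised counts of the 10 genes (vertical axes, each from 0) in the 8 APOE2 and 5 APOE3 libraries. Each point is a library and the black bar gives the mean and SD. The points of the groups overlap in every panel, and the 0 of Lrp1 belongs to APOE3 replicate 5.

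By level, the genes fell into steps. Sort1, with a mean of 1833 normalised counts over the 13 libraries, and Apoe, with 1774, were the most abundant, at ranks 840 and 865 of the 22656 genes. Their order was not fixed, since Sort1 exceeded Apoe in 5 of 13 libraries. Scarb1 (715), Lrp10 (636) and Mesd (579) followed, and neighbours among these kept their order in 10 and 8 of 13 libraries. Apoe lay above Scarb1 in 13 of 13. Lrpap1 (307), Lrp12 (275) and Lrp8 (238) formed a lower step, with the order kept in 9 and 8 of 13 libraries, and Mesd exceeded Lrpap1 in 13 of 13. Lrp1 (90.2) lay below Lrp8 in 13 of 13 libraries, and Sorl1 (19.9) lay below Lrp1 in 12 of 13. The receptor long studied as the apolipoprotein E receptor of melanoma cells, Lrp1, was thus among the receptors with the lowest counts here, while the sorting receptor Sort1 had the highest.

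The ligand was taken first because the hairpin is directed against it. Apoe (ENSMUSG00000002985, chromosome 7, 19696109 to 19699188, minus strand, mm10) had from 1217 to 2101 normalised counts in APOE2 hosts, with a median of 1907. In the 5 APOE3 libraries it had 2016, 2369, 1193, 1977 and 1671. Both the lowest and the highest value came from APOE3 hosts, so the APOE2 values lay inside the APOE3 range. Its log2 fold change was −0.088, with a 95% interval from −0.42 to 0.25 and a limma adjusted p of 0.852. On the linear scale that interval runs from 0.746-fold to 1.19-fold. The two-sided exact permutation test over 1287 divisions of the libraries gave p = 0.681. The spread within groups was 22.6% of the mean, where counting of reads alone gives 2.38%. APOE3 replicate 3 had the lowest Apoe. Without it the log2 fold change was −0.24, and without APOE3 replicate 2, which had the highest, it was 0.011.

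Apoe was also set against the summed counts of the 7 listed receptors in the same library, which removes the library scaling. In APOE2 hosts there was 0.470 ± 0.119 (SD, n = 8) of an Apoe count for each count of the 7 receptors, against 0.464 ± 0.0863 (SD, n = 5) in APOE3 hosts. The ratio ranged from 0.319 to 0.607 in APOE2 and from 0.327 to 0.558 in APOE3.

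Among the receptors that belong to the LDL receptor-related proteins, Lrp1 is the large endocytic receptor that clears many ligands and acts as a signalling receptor for apolipoprotein E. Lrp1 (ENSMUSG00000040249, chromosome 10, 127538161 to 127621148, minus strand) had from 47.1 to 123 normalised counts in APOE2, with a median of 111. The APOE3 libraries had 65.3, 92.7, 93.7, 119.6 and 0. The 0 stood in APOE3 replicate 5, where a count of 0 allows up to 3 reads, or 3.47 normalised counts. The other 12 libraries had from 46 to 134 reads of Lrp1. The difference, as a log2 fold change, of 1.38 had an interval from −0.15 to 2.92 and a limma adjusted p of 0.404. Without APOE3 replicate 5 it was 0.079, with an interval from −0.52 to 0.68 and a limma adjusted p of 0.930. The difference in the mean was thus carried by 1 library. The edgeR and DESeq2 estimates with all libraries were both 0.43.

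Lrp8, also called ApoER2, is a receptor for apolipoprotein E and reelin. Lrp8 (ENSMUSG00000028613, chromosome 4, 107802261 to 107876840, plus strand) had from 90.6 to 308 normalised counts in APOE2, with a median of 253. APOE3 hosts gave 325.5, 232.8, 168.6, 346.4 and 229.1. The groups overlapped, and 2 APOE3 libraries lay above every APOE2 library while 2 APOE2 libraries lay below every APOE3 library. The log2 fold change was −0.25, with an interval from −0.77 to 0.26 and a limma adjusted p of 0.684. It was −0.081 without APOE2 replicate 1, which had the lowest value.

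Lrp10 and Lrp12 are smaller and more distant relatives, and Lrp10 is known to cycle between the trans-Golgi network and endosomes. Lrp10 (ENSMUSG00000022175, chromosome 14, 54464137 to 54471497, plus strand) had from 389.8 to 787 normalised counts in APOE2, with a median of 588. In the APOE3 group the values were 692, 912, 783, 783 and 450.1. Of the 8 APOE2 libraries 1 lay above the APOE3 mean of log2 values. Its log2 fold change was −0.31, with an interval from −0.66 to 0.045 and a limma adjusted p of 0.421. Without APOE3 replicate 5, the lowest of its group, it was −0.47 with a limma adjusted p of 0.164. Lrp10 overlaps exons of Gm10366 on the opposite strand, which had a mean of 1.97 normalised counts.

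Lrp12 went in the other direction. Lrp12 (ENSMUSG00000022305, chromosome 15, 39870589 to 39943994, minus strand) had from 238 to 353 normalised counts in APOE2, with a median of 296. In APOE3 it had 204, 131, 347.6, 184.5 and 379.5. The APOE3 libraries were split, with 3 below every APOE2 library and 1 above every APOE2 library. The difference, as a log2 fold change, was 0.32, with an interval from −0.12 to 0.76 and a limma adjusted p of 0.514. It was 0.12 without APOE3 replicate 2 and 0.50 without APOE3 replicate 5, neither past the threshold (limma adjusted p = 0.846 and 0.251).

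Sort1 and Sorl1 share the VPS10 domain, and both are known to carry cargo between the Golgi and endosomes. Sortilin, the product of Sort1, binds apolipoproteins, progranulin and prosaposin. Sort1 (ENSMUSG00000068747, chromosome 3, 108284082 to 108361511, plus strand) had from 1581 to 2153 normalised counts in APOE2, with a median of 1837. The APOE3 libraries had 1432, 2286, 1609, 1918 and 1641. The lowest and the highest value were both from APOE3. The log2 fold change was 0.085, with an interval from −0.16 to 0.33 and a limma adjusted p of 0.788. On the linear scale the interval runs from 0.898-fold to 1.25-fold. The estimate was 0.012 without APOE3 replicate 1 and 0.18 without APOE3 replicate 2. The spread within groups was 13.8% of the mean.

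Sorl1, the receptor also called SorLA or LR11, was the scarcest of the 10 and had the largest estimated difference. Sorl1 (ENSMUSG00000049313, chromosome 9, 41964720 to 42124297, minus strand) had from 0.919 to 29.3 normalised counts in APOE2, with a median of 12.6. APOE3 hosts gave 26.3, 15.8, 48.9, 23.5 and 44.0. These are from 1 to 32 reads in APOE2 and from 14 to 47 in APOE3. In APOE2 5 of 8 libraries lay below every APOE3 library, and the other 3 overlapped with them. Its log2 fold change was −1.81, with an interval from −3.36 to −0.26, an unadjusted p of 0.0242 and a limma adjusted p of 0.277. The two-sided exact permutation test gave p = 0.0412. On reads the estimate was smaller, at −1.32 by edgeR (adjusted p = 0.437) and −1.34 by DESeq2 (adjusted p = 0.350). Leaving out single libraries gave from −2.07 to −1.50, with limma adjusted p-values from 0.235 to 0.407. A list of other leukocyte markers was kept separate from the macrophage and monocyte list. These markers summed to between 90.8 and 474 normalised counts in APOE2 and between 140.0 and 400.3 in APOE3. Endothelial markers summed to between 793 and 1221 in APOE2 and between 1045 and 2335 in APOE3. Their part in the Sorl1 counts was not tested. Sorl1 overlaps exons of Gm16214 on the opposite strand, and Sort1 those of Gm12523, both not among the rows of the table.

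Scarb1 encodes the scavenger receptor SR-BI, which takes up cholesterol esters from high-density lipoprotein. Its gene (ENSMUSG00000037936, chromosome 5, 125277087 to 125341094, minus strand) had the smallest p-value of the 10. It had from 465 to 816 normalised counts in APOE2, with a median of 638. In the APOE3 group the values were 870.1, 964.9, 597.4, 918.8 and 858.5. Of the 5 APOE3 libraries 4 lay above every APOE2 library, while replicate 3 lay inside the APOE2 range. The means were 636 ± 115 (SD, n = 8) and 842 ± 143 (SD, n = 5). The difference, as a log2 fold change, was −0.41, with an interval from −0.71 to −0.10, an unadjusted p of 0.0106 and a limma adjusted p of 0.206. The two-sided exact permutation test gave p = 0.0256. Without APOE3 replicate 3 the log2 fold change was −0.52 (limma adjusted p = 0.131), and over all fits that left out 1 library it ran from −0.52 to −0.34. The limma adjusted p stayed at or above 0.131 in all of these. The lung-epithelium list moved in the same direction, with medians of 2858 in APOE2 and 12185 in APOE3. Its part in the Scarb1 counts was not tested.

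**Figure D2:**
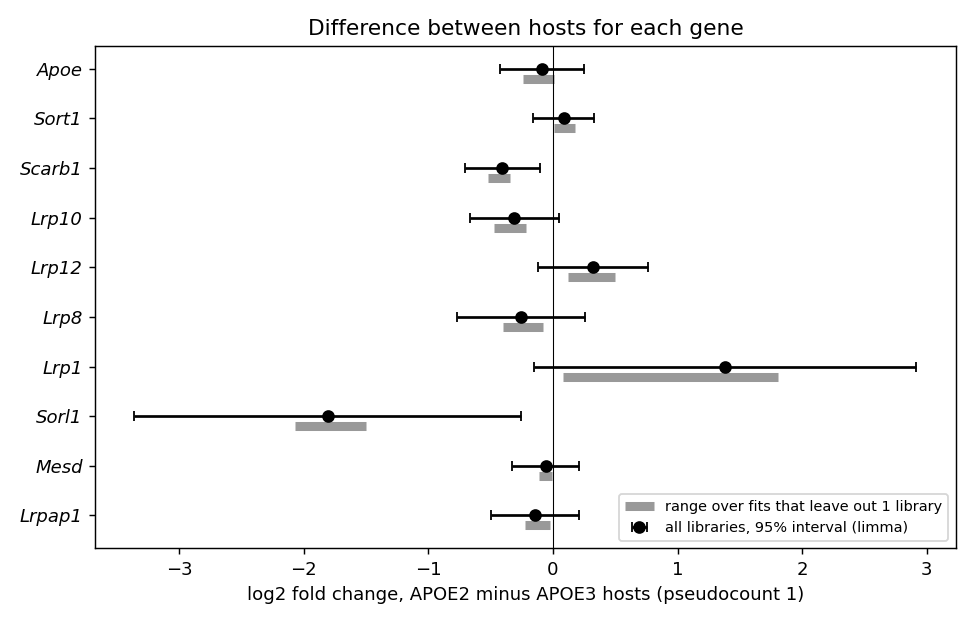
Log2 fold change of APOE2 minus APOE3 hosts (horizontal axis) for each gene, with its 95% interval from limma in black and, in grey, the range of estimates when each of the 13 libraries was left out in turn. The interval of Sorl1 runs from −3.36 to −0.26 and that of Scarb1 from −0.71 to −0.10, and the grey bar of Lrp1 reaches 0.079.

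The chaperones were close to level between the hosts. Mesd (ENSMUSG00000038503, chromosome 7, 83884466 to 83901532, plus strand) had from 447 to 728 normalised counts in APOE2, with a median of 581. In APOE3 it had 571, 608, 622, 599.7 and 547, all inside the APOE2 range. The log2 fold change was −0.057, with an interval from −0.32 to 0.21 and a limma adjusted p of 0.888, and it ran from −0.11 to −0.0082 when single libraries were left out. Mesd shares exons with Gm49493 on the same strand, which had a mean of 0.16 normalised counts. Lrpap1 (ENSMUSG00000029103, chromosome 5, 35091501 to 35105766, minus strand) had from 216 to 359 in APOE2, with a median of 293, and 280.2, 447.4, 289.3, 363.4 and 255.7 in APOE3. Its log2 fold change was −0.14, with an interval from −0.50 to 0.21 and a limma adjusted p of 0.753. The highest value, in APOE3 replicate 2, weighed on it, since the log2 fold change was −0.024 without that library. For each Mesd count, APOE2 libraries held 0.527 ± 0.138 (SD, n = 8) of a Lrpap1 count, against 0.553 ± 0.118 (SD, n = 5) in APOE3 libraries.

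Summed over the 7 receptors, APOE2 libraries held 3714 ± 275 normalised counts (SD, n = 8) against 3959 ± 477 (SD, n = 5) in APOE3, with overlap between the groups. Sort1 made up 50.3% ± 3.41 of that sum in APOE2 and 44.6% ± 3.48 in APOE3, from 46.9% to 56.4% and from 39.6% to 49.3%. Scarb1 made up 17.1% ± 2.89 and 21.3% ± 3.11. Lrp10 made up 15.6% ± 2.79 and 18.2% ± 3.40. Lrp12 had 7.91% ± 1.49 and 6.57% ± 3.34, and Lrp8 had 6.02% ± 1.81 and 6.62% ± 1.90. Lrp1 had 2.72% ± 0.799 and 1.83% ± 1.10, and Sorl1 had 0.325% ± 0.278 and 0.836% ± 0.431. In each library the largest share was that of Sort1, with Scarb1 or Lrp10 next. These shares are given as a description, without a test, because they are built from the chosen genes.

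**Figure D3:**
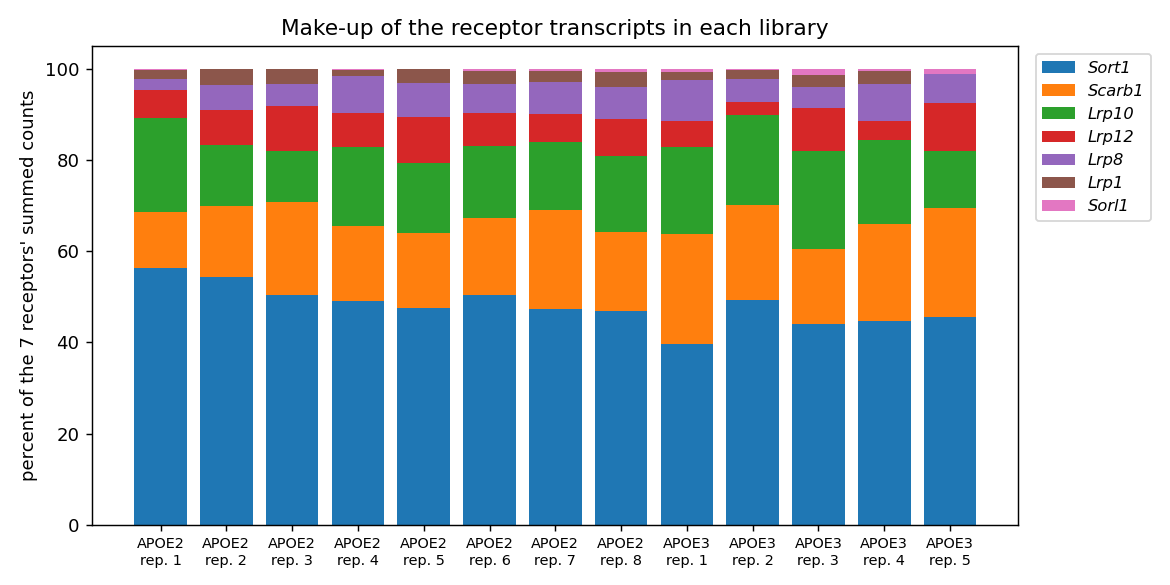
Share of each receptor gene in the summed normalised counts of the 7 receptors (vertical axis, percent), with 1 bar per library. Sort1 takes from 39.6% to 56.4% of every bar, and Lrp1 and Sorl1 form the thin bands at the top.

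For each of the 8 genes whose mean reached 100 normalised counts, the genes of the table that varied most alike were listed. Likeness was Pearson's r of log2 values over the 13 libraries after each host group had been centred on its mean, among 8279 other genes. The values are the highest of many, and they share the library scaling. For Apoe they were Txnl1 (0.88), Pla2g12a (0.85), Ppp2r3a (0.83), Slc16a6 (0.80) and Lrrc40 (0.80). For Sort1 they were Cybc1 (0.91), Natd1 (0.91) and Usp11 (0.90), and for Scarb1 Usp1 (0.86), Nabp2 (0.85) and Troap (0.82). For Lrp10 they were Ndufb8 (0.89), Kif3a (0.88) and Mapk9 (0.87), and for Lrp12 Far1 (0.90), Afg3l2 (0.90) and Trmt1l (0.89). For Lrp8 they were Fam162a (0.88), Col15a1 (0.83) and Prdm16 (0.80). For Lrpap1 they were Alkbh3 (0.89), Dap3 (0.88) and Akap9 (0.87), and for Mesd Traip (0.93), Gopc (0.87) and Phf12 (0.85). None of the 10 genes was in the list of another.

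The remaining genes of the pathway were read from 6 lists, of which 66 genes passed the filter on low values. By limma 1 of them differed between the hosts, against 0.379% of all genes tested that were lower and 0.411% that were higher. That gene was Pltp, the phospholipid transfer protein, which moves lipid between lipoproteins. Pltp had from 7.35 to 39.1 normalised counts in APOE2, with a median of 21.0, and 49.5, 53.1, 77.0, 117.7 and 133.0 in APOE3. The groups did not overlap, as was so in either direction for 0.984% of all genes tested. Pltp fell by 2.04 on the log2 scale, with a limma adjusted p of 0.0349, and kept its call in 7 of the 13 leave-one-out fits, whose adjusted p-values spanned 0.0226 to 0.0969. It lost its call without APOE2 replicate 1, 2 or 8 and without APOE3 replicate 3, 4 or 5. It also lost it with no filter on low values (limma adjusted p = 0.120), without the intensity trend (0.105), with array weights (0.0556) and with the replicate number as a block (0.127), and kept its direction in all of these. The medians of the lung-epithelium list (2858 and 12185), the endothelial list (1025 and 1669) and the fibroblast and smooth muscle list (288 and 573) were also lower in APOE2, and their part in the Pltp counts was not tested.

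Other ligands of these receptors held 12 tested genes of 21 listed, with 0 called higher and 1 lower. Their median log2 fold change was −0.37, beside 0.00037 for all genes tested. The most abundant was Psap, whose product prosaposin is carried to lysosomes by sortilin. Psap had from 5280 to 9752 normalised counts in APOE2, with a median of 6454, and 3948, 2671, 3295, 6743 and 6131 in APOE3. Its log2 fold change of 0.66 did not pass (limma adjusted p = 0.104), and 2 APOE3 libraries lay inside the APOE2 range. Grn, the progranulin gene and another sortilin ligand, had means of 2242 and 2848 and a log2 fold change of −0.28 (limma adjusted p = 0.424). App, the amyloid precursor that Sorl1 sorts, had means of 3427 and 2941 and a log2 fold change of 0.28 (limma adjusted p = 0.431). Without APOE3 replicate 2 the estimates were −0.073 for Grn and 0.047 for App, so both printed differences rested largely on that library.

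Among the other LDL receptor-related and VPS10 receptors, 6 of 11 listed genes were tested and 0 were called. By limma 0 had an unadjusted p under 0.05, beside 14.2% of all genes tested. The median log2 fold change was −0.23, beside 0.00037 for all genes tested. The most abundant were the Wnt co-receptor Lrp6, with means of 278 and 309 and a log2 fold change of −0.10, and Lrp11, with 130 and 95.7 and 0.64. Lrp5 had 49.9 and 65.1 (−0.36) and Lrp4 had 17.0 and 8.16 (0.82). By limma their adjusted p-values spanned 0.414 to 0.840. The Lrp11 estimate was 0.28 without APOE3 replicate 2, and that of Lrp5 was −0.19 without APOE3 replicate 3. Lrp3 and Vldlr were below the filter, with means over all libraries of 4.2 and 7.1. The tested levels of these relatives were all below that of Scarb1.

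Other scavenger receptors had 6 tested of 12 listed, 0 called by limma, 3 at an unadjusted p under 0.05 and a median log2 fold change of −0.31. Over all genes tested, 14.2% had an unadjusted limma p under 0.05 and the median was 0.00037. Cd36, a fatty acid receptor that is also high in lung endothelium, had means of 26.8 and 74.4 normalised counts and a log2 fold change of −1.46 (limma adjusted p = 0.132). DESeq2 called it, with an adjusted p of 0.0389. Scarf1 went the other way, with 71.0 and 34.1 and a log2 fold change of 1.16 (limma adjusted p = 0.153). The lysosomal Scarb2 had 977 and 1119 (−0.20, limma adjusted p = 0.442), and Scarf2 had 413 and 435.0 (−0.043, limma adjusted p = 0.937).

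Genes of endocytic and retromer sorting, which recycle the receptors, held 25 tested of 27 listed. By limma 0 were called and 5 had an unadjusted p under 0.05, as did 14.2% of all genes tested. Of the estimates 12 were above 0 and 13 below, with a median of −0.015, beside 0.00037 for all genes tested. Snx1 had means of 2160 and 1819 (0.24), Snx5 1351 and 1321 (0.025), and the retromer subunits Vps29 1284 and 1313 (−0.038) and Vps26a 851 and 645 (0.45). Ap1g1, of the Golgi clathrin adaptor, had 764 and 976 (−0.35). By limma their adjusted p-values spanned 0.177 to 0.942. Without APOE3 replicate 2 the Vps26a estimate was 0.24. Proteases that cleave the receptors held 14 tested of 14 listed, with 0 called by limma and a median of 0.015. Of these proteases 2 had an unadjusted limma p under 0.05, beside the same 14.2% of all genes tested. Bace2 had means of 2718 and 2725 (0.0082), Psen2 2631 and 2682 (−0.0097) and Mmp14 1383 and 1072 (0.40), with limma adjusted p-values from 0.221 to 0.985. Without APOE3 replicate 5 the Mmp14 estimate was 0.26. Of the other apolipoproteins 3 of 19 listed were tested, Apoa2, Apoo and Apool, with log2 fold changes of −0.92, 0.37 and −0.50 and limma adjusted p-values from 0.506 to 0.797. Apoa2 had −0.30 without APOE2 replicate 3, and Apoo had −0.21 without APOE3 replicate 2. The Apoe neighbours Apoc1 and Apoc4 were below the filter, with means of 1.6 and 0.1.

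**Figure D4:**
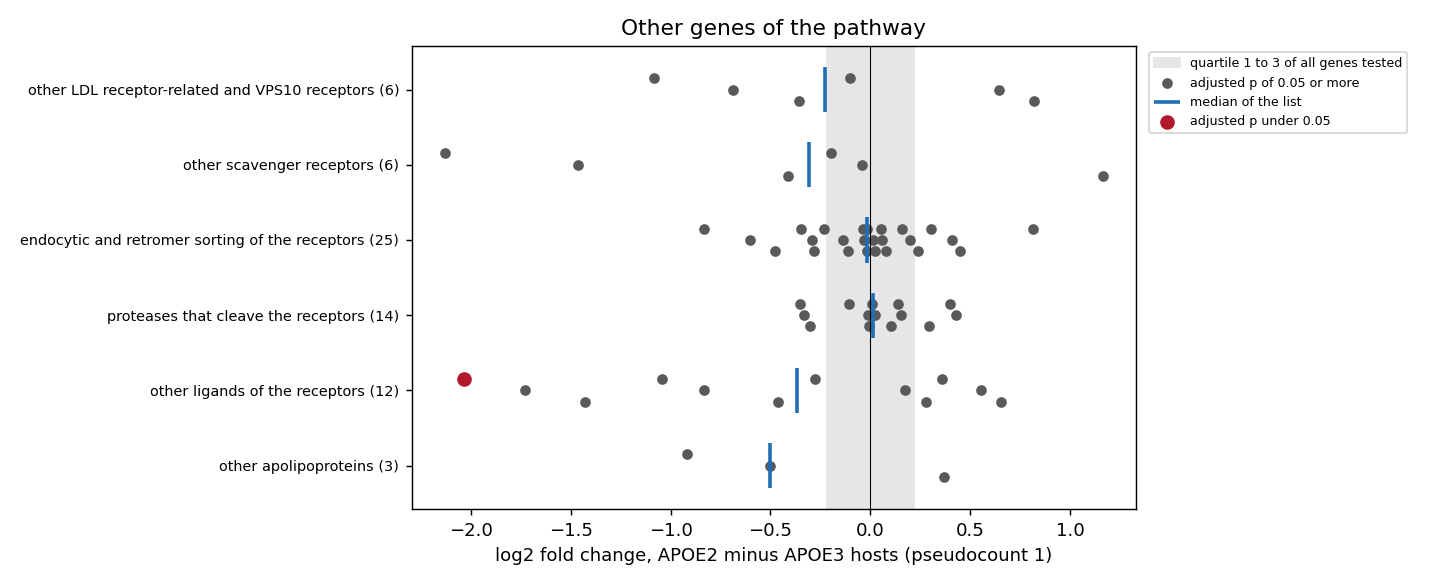
Log2 fold change of APOE2 minus APOE3 hosts (horizontal axis) for the 66 tested genes of the 6 other pathway lists (rows, with the number tested). The grey band spans the quartiles of all genes tested, from −0.21 to 0.22, blue lines are list medians, and the red point is Pltp at −2.04.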

How the data were processed

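RNA of 13 libraries was measured with a kit for transcript ends (QuantSeq forward). The submitters' processing notes name STAR 2.6.0, featureCounts, DESeq2 1.28.1 and the mm10 build, without roles; the annotation and strand setting are not given in the sources used here. The deposited table holds a signal per gene, read counts divided by a size factor for each library. Every nonzero value was a whole multiple of its library's smallest value (100% within 0.01), so whole reads were recovered. Symbols and positions came from GENCODE M21 (GRCm38, the same build), which matched 22649 of 22656 identifiers.

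The main test was limma 3.58.1 in R 4.3.3 on log2(value + 1) with an intensity trend, two-sided, for genes with a mean of at least 10, all 13 libraries and Benjamini-Hochberg adjustment. The step was tested on simulated counts in which every gene had the same spread beyond counting, unlike the genes here. Single genes also had an exact permutation test. Alternatives were pseudocounts of 0.5 and 5, no filter, a minimum mean of 50, equal totals, TMM, limma without the trend, with robust variance or array weights, edgeR 4.0.16 and DESeq2 1.42.0 on recovered reads, the replicate number as a block, and each library left out. Leaving out APOE3 replicates 2 and 3 together, the highest in Gm42418, was chosen after seeing the data. Gm42418 took 3.74% of the recovered reads in APOE3 replicate 2 and 3.03% in replicate 3. In the other libraries it took from 0.662% (APOE2 replicate 3) to 2.17% (APOE2 replicate 7). The genes and lists were chosen with earlier results of these data known. Named are the 10 genes and, from each list, those called, the 3 most abundant and the 2 with the smallest p. Some groups of the pathway were not analysed here, and 1 gene that this rule names is not reported.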

Additional observations from a re-analysis of the deposited data

Results flagged for a closer look

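Each named gene was checked in both host groups, by Dixon's criterion, for a single library far from the rest. Among 68 such checks 5 values stood out, and about 3.4 would by chance. They belonged to 3 libraries. Scarb1 in APOE3 replicate 3 had 597 normalised counts, against 858 in the next lowest library. Psen2 was low in that library too, at 1882 against 2748. App in APOE3 replicate 2 had 1478, against 3021 in the next. In APOE2 replicate 4, App was high at 4224 against 3570, and Cd36 was high at 64.5 against 31.3.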

How the results depend on the processing

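No alternative called any of the 10 genes that it tested (0 in each). The minimum mean of 50 left 9 of them to test, since it removes Sorl1. Of 259 estimates for them, 257 kept their sign, and both exceptions were Apoe, at 0.018 with array weights and 0.011 without APOE3 replicate 2. Of all genes tested, 98 were called, 9 with no filter on low values, 0 without the trend (1599 at an unadjusted p under 0.05), 311 by DESeq2, 43 with the replicate number as a block and 1 without APOE3 replicates 2 and 3 together, with from 9 (without APOE3 replicate 3) to 228 (without APOE3 replicate 1) when single libraries were left out. With equal library totals the split was 38 higher and 54 lower, beside 51 and 47. Of the other pathway genes 1 was called, and 0 with no filter, a minimum mean of 50 (which removes Pltp), no trend, the replicate block or without APOE3 replicates 2 and 3 together, 2 by DESeq2, and from 0 to 2 without single libraries. The causes were not tested. Same-numbered libraries correlated between −0.15 and 0.063 in their deviations, and 0 of 5 APOE3 libraries matched best with its own number. This gave no sign that the numbers pair the libraries, but so few libraries cannot show that they do not. With the replicate block the estimates were −2.70 for Sorl1 and −0.53 for Scarb1 (limma adjusted p = 0.210 and 0.273), and no call among the 10 genes changed. With array weights Psap passed (limma adjusted p = 0.0474) and Pltp did not (0.0556). Among named genes with small differences the sign changed as follows, as log2 fold changes. Over the fits without single libraries the range was −0.24 to 0.011 for Apoe, −0.23 to 0.044 for Lrp6, −0.18 to 0.073 for Scarf2, −0.083 to 0.016 for Vps29, −0.0086 to 0.056 for Snx5, −0.057 to 0.097 for Bace2, −0.13 to 0.044 for Psen2 and −0.21 to 0.78 for Apoo. With array weights Scarf2 had 0.061 and Psen2 0.072. With equal totals Snx5 had −0.015 and Bace2 −0.032. Bace2 also had −0.0033 by DESeq2 and −0.0037 with the block. Without APOE3 replicates 2 and 3 together, Scarf2 had 0.081, Vps29 0.024, Bace2 −0.048, Grn 0.046 and Apoo −0.51. Read depth limits Sorl1 most, with as few as 1 read in a library and a counting error of 22.7% of its mean, beside a spread within groups of 60.8%.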
